A study of Astragalus chrysochlorus with 2 samples.

Results

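The auxin response and conjugation genes described here, from Astragalus chrysochlorus callus, are 7 unigenes and not a full set. Of these, 4 were matched to auxin response factors, 1 to an Aux/IAA protein, 1 to a GH3 conjugating enzyme and 1 to an auxin-induced protein. They are 7 of the 82566 unigenes in the deposited table. They were chosen by name from the study's list of differentially expressed unigenes, which holds only unigenes that differed at least 4-fold between these libraries. Per the study's methods, an FDR of at most 0.001 between the same libraries was also required. The differences of the members are therefore a description of how they were picked and carry no test. For the Se-treated library, callus aged 21 days was kept for 3 weeks on medium that held 5 mg/L sodium selenate. The control library came from callus without selenate, and the comparison asks which genes differ in expression under selenate. Per the labels the MS medium held the synthetic auxin 2,4-D at 0.5 mg/L, and they say that the treated callus had selenate in addition, so both cultures grew on added auxin. The callus is a long-term culture of a legume that accumulates selenium. There was 1 library per condition, and whether the triplicate cultures were pooled is not given in the sources used here, so the spread between cultures is unknown. Only unigenes in the study's list carry names, so the callus identity was not checked against marker genes and auxin genes outside that list were not identified.

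Auxin is a plant hormone that directs cell division, cell expansion and the formation of organs, and callus is commonly kept growing with it. Auxin response factors (ARFs) bind the promoters of auxin-regulated genes and either activate or repress them. Aux/IAA proteins hold ARFs back and recruit TOPLESS co-repressors, and auxin brings about their destruction through an SCF ubiquitin ligase that contains SKP1. GH3 enzymes join free auxin to amino acids and so lower the pool of active hormone, while many small auxin-induced proteins of the SAUR family, to which ARG7 of mung bean belongs, respond quickly to auxin.

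The libraries were close in depth, with 16.7 fragments each in units of 1e+06, and the Se-treated total was 0.168% below that of the control. Levels are given as FPKM, fragments per kilobase of unigene scaled to the size of the library, computed from the deposited fragments. Differences are log2 ratios, Se-treated FPKM divided by control FPKM. Brackets give exact 95% intervals, Poisson for a level and binomial for a ratio. These intervals cover counting error only and say nothing of other cultures. Fragments can be copies of 1 molecule, so the intervals can be too narrow even for that. Calls were made by size alone, at 4-fold or more (2 on the log2 scale) for unigenes with 10 or more fragments over both libraries.

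Of the 7 members, 6 were called higher in Se-treated callus and 1, the ARG7-like unigene, was called lower. All 7 passed the minimum of fragments. RNA was taken from whole callus, where fewer cells with a transcript and less of it per cell cannot be told apart. Over the 74003 unigenes that passed it, 4.04% were called higher and 3.16% lower. The members were chosen for differences of this size, so nothing is read from the contrast with these shares. Their median log2 ratio was 2.20, with the ARG7-like unigene set at a floor of 3 fragments, and the median over all unigenes past the minimum was -0.09. All 7 intervals lay wholly beyond a 2-fold difference. Of the unigenes past the minimum, 1376 called higher and 981 called lower had such an interval. The study's list was made by size and FDR from these libraries, so the choice favoured such intervals and they are no support. With 1 FPKM added to both libraries, which shrinks ratios of low levels, ARF2-like Unigene22826_All alone of the 6 was still called higher, and the ARG7-like unigene was still called lower. With a minimum of 50 fragments the calls of the IAA30-like and ARG7-like unigenes were lost.

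The short unigenes Unigene22826_All, Unigene39777_All and Unigene39964_All, were matched to auxin response factor 2, which in Arabidopsis acts as a repressor and takes part in ageing and organ growth. Unigene22826_All, 483 nt long, had 126 fragments in Se-treated and 22 in control callus. That is 15.6 FPKM (13.0 to 18.6) in Se-treated and 2.72 FPKM (1.71 to 4.12) in control callus. Its log2 ratio was 2.52 (1.86 to 3.24), the largest of the 4 ARF matches. Unigene39777_All, 226 nt long, had 46 fragments in Se-treated and 10 in control callus, with 12.2 FPKM in Se-treated and 2.64 FPKM in control callus and a log2 ratio of 2.20 (1.20 to 3.36). Unigene39964_All, 253 nt long and matched to a strawberry protein where the other ARF2-like unigenes were matched to soybean, had 55 fragments in Se-treated and 12 in control callus. Its levels were 13.0 FPKM in Se-treated and 2.84 FPKM in control callus, and its log2 ratio was 2.20 (1.28 to 3.24).

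The ARF2-like unigenes lay close to each other in level within each library. Their FPKM ran between 12.2 and 15.6 in Se-treated callus and between 2.64 and 2.84 in control callus, and their intervals overlapped within each library but not between the libraries. Summed over their 962 nt, they had 227 fragments in Se-treated and 44 in control callus, a log2 ratio of 2.37 (1.90 to 2.87). Their lengths are short for an ARF message, and their sequences were not used here, so whether they are pieces of 1 transcript or of several genes was not tested.

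Auxin response factor 5 is an activator that in Arabidopsis sets up the embryo axis and the vascular tissue. The ARF5-like Unigene20391_All, 627 nt long, had 195 fragments in Se-treated and 48 in control callus. It was the most abundant member in Se-treated callus at 18.6 FPKM (16.1 to 21.4), against 4.58 FPKM (3.37 to 6.07) in control callus. Its log2 ratio of 2.02 (1.56 to 2.51) was the smallest of the 7 in size and lay just inside the threshold of 2 by which the study's list was made. Unigenes just outside it carry no name, so no auxin unigene below the threshold could be set beside it.

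The Aux/IAA member, Unigene41429_All, matched to IAA30 of soybean, was the least abundant of those called higher. It had 25 fragments in Se-treated and 3 in control callus, over 388 nt. Its levels were 3.86 FPKM (2.50 to 5.70) in Se-treated and 0.462 FPKM (0.0953 to 1.35) in control callus. The log2 ratio of 3.06 was the largest of the 6, but it rests on 3 control fragments and its interval ran from 1.35 to 5.43, which spans the ratios of all the ARF matches.

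ARG7-like Unigene33385_All, 357 nt long, had no fragment in Se-treated and 27 in control callus, where it reached 4.52 FPKM (2.98 to 6.58). For the count of 0 the exact interval reached 0.619 FPKM, and a floor of 3 fragments equals 0.503 FPKM at this length. With that floor, and the control count taken as exact, the unigene was at least 8.98-fold lower in Se-treated callus. The interval of the ratio, which also allows for error in the control count, reached up to -2.77 on the log2 scale, a smaller difference. In control callus its level was about that of the ARF5-like unigene, and the intervals of these levels overlapped.

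**Figure D1:**
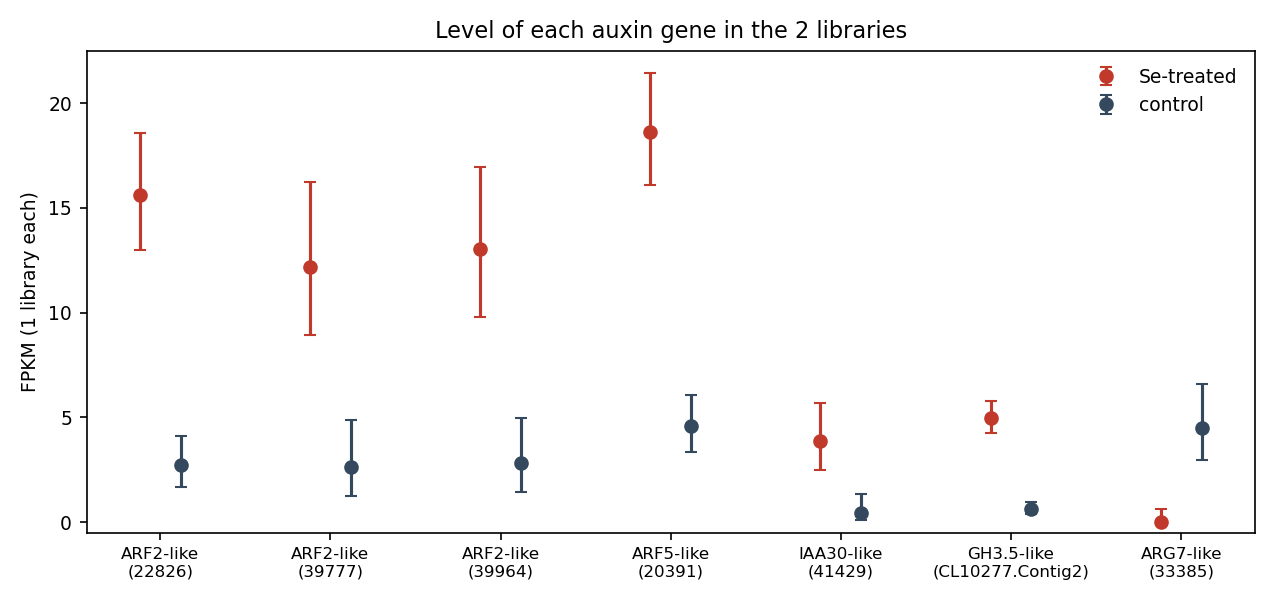
FPKM of the 7 members in the Se-treated (red) and control (dark) library, 1 library each, with exact 95% Poisson intervals as bars. The ARF matches reached 12.2 to 18.6 FPKM in Se-treated and 2.64 to 4.58 FPKM in control callus, and the ARG7-like unigene was the only member with the higher level in control callus.

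In Se-treated callus the order of levels was ARF5-like, then the ARF2-like unigenes, then GH3.5-like at 4.97 FPKM and IAA30-like at 3.86 FPKM, and ARG7-like last with no fragment. The ARF5-like interval overlapped those of all ARF2-like unigenes, and the GH3.5-like interval overlapped that of IAA30-like. In control callus ARF5-like and ARG7-like stood first, then the ARF2-like unigenes, whose intervals overlapped both. GH3.5-like and IAA30-like were lowest in control callus at 0.654 and 0.462 FPKM, with overlapping intervals, and that of IAA30-like also reached the lower end of the interval of Unigene39777_All. By mean FPKM over both libraries the ARF matches lay between percentiles 79.9 and 85.7 of all unigenes, and the other members between 45.9 and 56.8.

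GH3.5-like CL10277.Contig2_All, the conjugating enzyme, had 167 fragments in Se-treated and 22 in control callus over its 2011 nt. Its levels were 4.97 FPKM (4.25 to 5.79) in Se-treated and 0.654 FPKM (0.410 to 0.990) in control callus, a log2 ratio of 2.93 (2.28 to 3.64). In Arabidopsis GH3.5 acts on auxin and also on salicylic acid. This contig belongs to a cluster of 3 similar assembled sequences, and the ratios of the other contigs were near 0. Contig1, 1577 nt long, had 30 fragments in Se-treated and 25 in control callus, a log2 ratio of 0.27 (-0.55 to 1.09). Contig3, the longest at 3070 nt, had 325 fragments in Se-treated and 337 in control callus, a log2 ratio of -0.05 (-0.27 to 0.17).

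Summed over the cluster there were 522 fragments in Se-treated and 384 in control callus, a log2 ratio of 0.45 (0.25 to 0.64), well under the 2.93 of Contig2. Contig1 and Contig3 together had 355 fragments in Se-treated and 362 in control callus, or -0.03 (-0.24 to 0.19) on the log2 scale. Contig2 held 32.0% of the cluster's fragments (28.0 to 36.2, exact binomial) in Se-treated and 5.73% (3.62 to 8.55) in control callus. Contig3 held 62.3% in Se-treated and 87.8% in control callus. Contigs of a cluster share sequence and can share reads, and the part that the placement of shared reads has in the values of Contig2 was not tested.

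**Figure D2:**
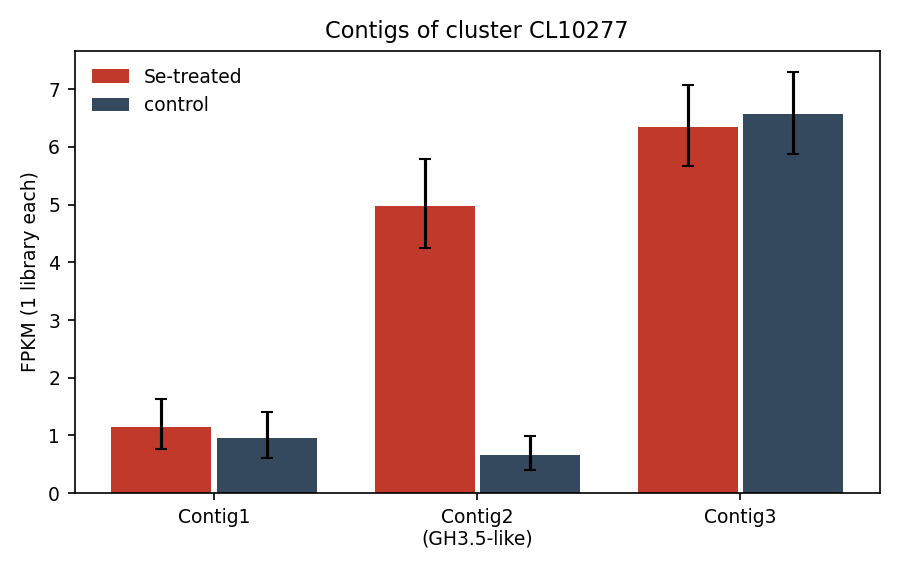
FPKM of the 3 contigs of cluster CL10277 in the Se-treated (red) and control (dark) library, with exact 95% Poisson intervals as bars. Contig2, the GH3.5-like member, stood at 4.97 FPKM in Se-treated and 0.654 FPKM in control callus, while the intervals of Contig1 and of Contig3 overlapped between the libraries.

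**Figure D3:**
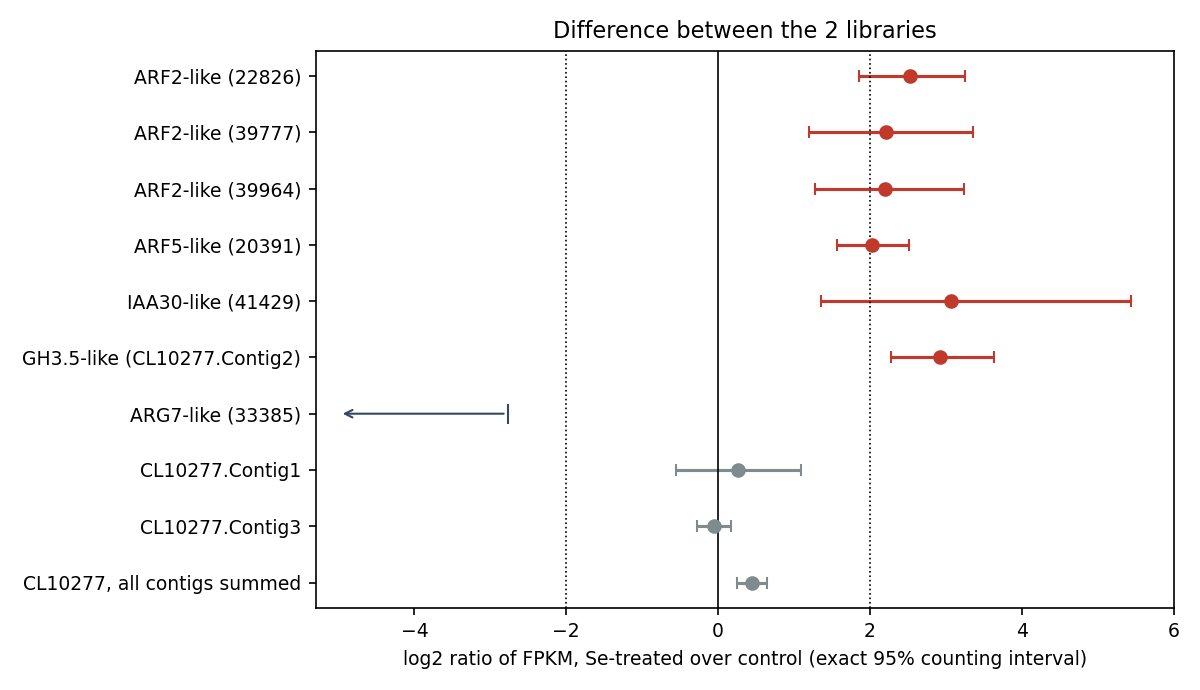
Log2 of Se-treated divided by control FPKM for the 7 members, the other contigs of the GH3.5-like cluster and that cluster summed, with exact 95% binomial intervals. The arrow starts at -2.77, the upper end of the interval of the ARG7-like unigene, which had no fragment in Se-treated callus, and the dotted lines mark the threshold of 2. The summed cluster lies at 0.45, far from its Contig2 at 2.93.

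The 6 members outside the clusters carry a number from the assembly, and the direction of unigenes in these data went with that number. Beside each member the 250 unigenes numbered just below it and the 250 just above were therefore examined. Near ARF2-like Unigene39777_All 95.2% of these 500 neighbours had the higher FPKM in Se-treated callus, near Unigene39964_All 90.4% and near IAA30-like Unigene41429_All 92.4%. The median log2 ratio of these neighbours was 1.64, 1.59 and 1.67, and 37.0%, 38.0% and 38.8% of those past the minimum of fragments were called higher. The neighbours were short, with median lengths of 270.5, 289.5 and 300.0 nt. A ratio at least as large as the member's was found in 139, 149 and 55 of the neighbours, so ratios of their size were common around these members. These counts are over all 500 neighbours, with no minimum of fragments. Of these neighbours 3.2%, 2.6% and 2.2% had no control fragment, which can give a very large ratio.

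ARG7-like Unigene33385_All lay in a stretch that ran the other way. Of its neighbours 7.0% were higher in Se-treated callus, their median log2 ratio was -1.75, and 37.2% of those past the minimum were called lower. Like the member, 2.4% of them had no fragment in Se-treated callus, and 4 of these had at least its 27 control fragments.

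ARF2-like Unigene22826_All and ARF5-like Unigene20391_All lay among unigenes that did not lean to Se-treated callus. Of their neighbours 38.2% and 41.2% were higher in Se-treated callus, with median log2 ratios of -0.15 and -0.16, and 1.02% and 1.24% of those past the minimum were called higher. Only 5 of the 500 neighbours of each had a ratio at least as large. The neighbours of Unigene39777_All and Unigene39964_All leaned strongly to Se-treated callus and those of Unigene22826_All did not. The ratio of Unigene22826_All was 2.52 and that of the other ARF2 matches 2.20. All ARF2 matches had to pass a log2 ratio of 2 to be listed, so nothing is read from how close their ratios are. What the number stands for is not given in the sources used here, and its part in the members' differences was not tested.

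**Figure D4:**
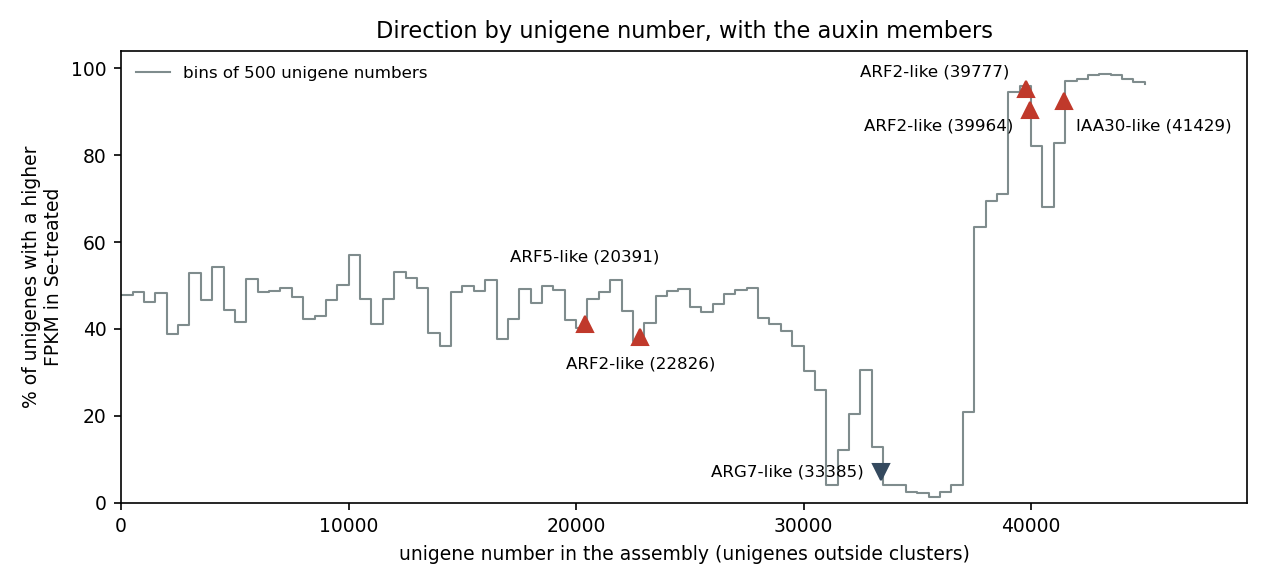
Percent of unigenes with a higher FPKM in the Se-treated library by unigene number, in bins of 500 numbers (grey line), and the same percent among the 500 nearest neighbours of each numbered member (red, members called higher; dark, the member called lower). ARF2-like Unigene22826_All and ARF5-like Unigene20391_All sit near 40%, the other red members between 90.4% and 95.2%, and the ARG7-like unigene at 7.0%.

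Of the 7 members 5 were shorter than 500 nt. Over all unigenes 7.47% of such short ones past the minimum were called higher, against 1.98% of the longer ones. Called lower were 5.58% of the short and 1.71% of the longer ones, so short unigenes had more calls in both directions. Among unigenes numbered under 30000, where Unigene22826_All and Unigene20391_All lie, 1.25% of the short and 1.23% of the longer ones were called higher. There 0.90% of the short and 0.82% of the longer ones were called lower.

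Partners of the ARF and Aux/IAA proteins that carry a name in the study's list went in both directions, 2 higher and 2 lower. Among all unigenes past the minimum, 4.04% were called higher and 3.16% lower. Topless-related protein 4-like (Unigene16571), of the co-repressors that Aux/IAA proteins recruit, had 673 fragments in Se-treated and 135 in control callus, a log2 ratio of 2.32 (2.05 to 2.60). Its number lies in a stretch with no lean to Se-treated callus, where 39.2% of the neighbours were higher. A CAND1-like unigene (CL4183.Contig3), for a factor that exchanges the receptors of SCF ligases, had 68 fragments in Se-treated and 13 in control callus, a log2 ratio of 2.39, but its cluster of 3 contigs had 0.37 (0.28 to 0.45).

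The SKP1 adaptors of SCF ligases were the lower ones. Skp1 (Unigene1040) had 16 fragments in Se-treated and 79 in control callus, a log2 ratio of -2.30 (-3.18 to -1.51), and its neighbours were even, with 250 of 500 higher. SKP1-like CL7022.Contig1 had 4 fragments in Se-treated and 24 in control callus, which is -2.58 (-4.57 to -1.04) on the log2 scale, while the sum of its 2 contigs went the other way, with 2823 fragments in Se-treated and 1678 in control callus and a log2 ratio of 0.75 (0.67 to 0.84). These unigenes come from the same list as the members, so the counts say which direction each took and not how often auxin partners differed.

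The 6 unigenes of auxin transport and its trafficking that were chosen by name were called higher in Se-treated callus. Of all unigenes past the minimum, 4.04% were. These 6 unigenes too come from the list of unigenes that differed at least 4-fold, so their count gives a direction only. All are ABCB1-like or EMB30-like, and whether those with the same match are pieces of 1 transcript was not tested. ABC transporter B1 moves auxin out of cells in Arabidopsis. The ABCB1-like Unigene41227 had 32 fragments in Se-treated and 5 in control callus, a log2 ratio of 2.68 (1.31 to 4.40). The ABCB1-like isoform 2 (CL7283.Contig1) was at 2.39 (1.76 to 3.09), from 126 fragments in Se-treated and 24 in control callus, and its 2 contigs summed were at 0.59. EMB30, known in Arabidopsis as GNOM, recycles auxin efflux carriers to the cell membrane.

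Of the 4 EMB30-like unigenes, Unigene41865 had 34 fragments in Se-treated and 3 in control callus, an 11.4-fold difference whose log2 interval ran from 1.84 to 5.85. The others had log2 ratios of 2.42 (1.14 to 3.97) for Unigene41597, 2.03 (1.13 to 3.03) for CL1422.Contig12 and 2.00 (1.52 to 2.51) for CL1422.Contig13, and all 4 intervals overlapped. CL1422.Contig13 was the most abundant, with 176 fragments in Se-treated and 44 in control callus. The cluster CL1422 of 14 contigs had 598 fragments in Se-treated and 350 in control callus, a log2 ratio of 0.78 (0.58 to 0.97). Unigene41227, Unigene41865 and Unigene41597 lie in the stretch of high numbers, where 82.4%, 97.4% and 95.8% of their neighbours were higher in Se-treated callus. The rest of the 6 are cluster contigs with smaller summed ratios. Each contig was picked for a difference of at least 4-fold, which by itself leans to a smaller ratio for the sum. The intervals of both sums lay above 0, at 0.45 to 0.72 for the ABCB1-like cluster and 0.58 to 0.97 for CL1422. Both sums include the picked contigs, which raises them, so these intervals are no support. Sums without the picked contigs were not computed. The part of the clusters and of the stretch in these ratios was not tested.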

How the data were processed

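RNA of 1 Se-treated and 1 control callus library was sequenced. Per the study's methods, low-quality reads were removed, the rest were assembled into unigenes with Trinity, TGICL and Phrap, and the reads were mapped to them with SOAP, which was set to keep 1 placement of a read that fits several, so similar contigs divide shared reads. The authors deposited fragment counts per unigene, not normalized, the unigene length, other columns with FPKM, and P-values and FDR of their own comparison, which were not used. The stored FPKM lacks its decimal mark from 1 upward, where the 58553 Se-treated and 59159 control values are 10000 times what the counts give, within 0.6. FPKM was therefore computed from the counts, the lengths and the library totals.

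An FPKM of 0 was replaced by 0.001 for calls, and a fold against 0 used a floor of 3 fragments. With 1 library per condition no test of the conditions exists, and calls rest on the size of the log2 ratio. The members and the lists of partners, transport and other hormone genes were chosen by name with earlier results of these data known, and the text names every one of them and every contig of cluster CL10277. Names come from the study's list of differing unigenes. Alternatives were pseudocounts, fragment minimums, 2 other scalings, a log2 ratio of 1, the counting interval, an FDR of 0.001 from an Audic-Claverie test that compares the 2 libraries, and fewer neighbours. The interval of the ratio was checked on counts simulated with the binomial model that it assumes. That check says nothing of spread between cultures, copied fragments or shared reads. The work was done in Python 3.11.15 with scipy 1.17.1, numpy 2.4.6, matplotlib 3.10.9 and pandas 2.3.3.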

Additional observations from a re-analysis of the deposited data

How the results depend on the processing

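All 7 members kept their direction under every alternative run, but none of these settings could reverse ratios of this size, so this is no support. Adding 1 FPKM to both libraries left 1 member called higher, ARF2-like Unigene22826_All at 2.16, with the other 5 between 1.73 and 1.87, and moved the GH3.5-like contig to 1.85 and the ARG7-like unigene to -2.46. It also left 418 of 2992 higher and 264 of 2339 lower calls over all unigenes. A minimum of 50 fragments left 5 members called higher, without IAA30-like Unigene41429_All, and 0 called lower, and 752 higher and 435 lower calls over all unigenes. With no minimum 4381 unigenes were called higher and 4107 lower, and at a log2 ratio of 1 there were 11531 higher and 11506 lower. With the interval also beyond 2-fold 1376 were called higher and 981 lower, with an FDR of at most 0.001 there were 1225 higher and 912 lower, and the members passed the FDR by the way their list was made. Leaving out Contig2 turned the summed GH3.5-like cluster to -0.026 on the log2 scale. With 100 neighbours on each side the share near Unigene39964_All was 94.0%. The 2 other scalings removed a median shift of -0.033 and an upper quartile shift of -0.034 on the log2 scale and changed no member's call. No paired analysis was possible because there is 1 library per condition. The members rest on 27 to 243 fragments over both libraries, and the spread between cultures is not measured.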

Other observations

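Unigenes of 2 other growth hormones in the study's list split into 1 called higher and 3 called lower in Se-treated callus. Over all unigenes past the minimum 4.04% were called higher and 3.16% lower. Cytokinin dehydrogenase 6-like (Unigene26624), an enzyme that breaks cytokinin down, had 761 fragments in Se-treated and 153 in control callus, a log2 ratio of 2.32 (2.06 to 2.58). LOG7-like (Unigene21119), of the enzymes that release active cytokinin, had 48 fragments in Se-treated and 194 in control callus, a log2 ratio of -2.01 (-2.50 to -1.55). The neighbours by number of these unigenes were even, with 49.4% and 50.2% higher in Se-treated callus. Gibberellin 3-beta-hydroxylase (Unigene30979), which makes active gibberellin, had 11 fragments in Se-treated and 103 in control callus, a log2 ratio of -3.22 (-4.27 to -2.33). SPINDLY-like (Unigene32450), matched to a protein that restrains the gibberellin response in Arabidopsis, had 6 fragments in Se-treated and 35 in control callus, -2.54 (-4.08 to -1.28) on the log2 scale. Both gibberellin unigenes lie where neighbours were mostly lower, with 11.2% and 24.2% higher in Se-treated callus. The list holds only unigenes that differed between these libraries, so these values are a description.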
